A study of Homo sapiens with 23 samples.

Results

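The human mitochondrial genome encodes 13 mRNAs, and the 6 described here are those for subunits of respiratory complexes III, IV and V: MT-CYB of complex III, MT-CO1, MT-CO2 and MT-CO3 of complex IV, and MT-ATP6 and MT-ATP8 of complex V, the ATP synthase. They were chosen by their place in the respiratory chain, with earlier results of these data known. All 6 were among the 16370 genes tested. The other 7 mitochondrially encoded mRNAs, which encode subunits of complex I, served for comparison. RNA-seq was performed on SCi-NCCITs, a line made from the human embryonal carcinoma line NCCIT to repress SVA retrotransposons by CRISPR interference. All 6 RNA libraries came from cells that carry a Tet-inducible dCas9-KRAB, a catalytically dead Cas9 joined to a repressor domain. The cells also carry 2 constitutively expressed sgRNAs against SVAs, which target the LTR5Hs family of transposable elements as well. The dCas9-KRAB and the sgRNAs were integrated with piggyBac in separate steps, each followed by drug selection. Stable clones were isolated at the dCas9-KRAB step. Cells of 3 libraries received 2 µg/mL doxycycline for 72 hours and cells of the other 3 received none. No RNA library came from cells given doxycycline without dCas9-KRAB or without the sgRNAs, so the drug itself and the induction of dCas9-KRAB cannot be told apart here. Nothing in the labels says that libraries of a condition came from separate cultures, and p-values then measure only the spread between these libraries, which may be technical.

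Mitochondrial DNA is transcribed from its heavy strand as long polycistronic RNAs, and the tRNAs that lie between most of the mRNAs are cut out to release them. Steady-state levels of mRNAs from a common precursor can differ because each has its own stability. Complex III passes electrons from ubiquinol to cytochrome c, complex IV passes them on to oxygen, and complex V uses the resulting proton gradient to make ATP. Each of them joins subunits from the mitochondrial and the nuclear genome. Doxycycline is a tetracycline, and drugs of this class are known to inhibit protein synthesis on mitochondrial ribosomes.

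Along the heavy-strand transcript, MT-CO1 (ENSG00000198804) comes first, at chrM:5904-7445 of GRCh37, followed by MT-CO2 (ENSG00000198712) at chrM:7586-8269, MT-ATP8 (ENSG00000228253) at chrM:8366-8572, MT-ATP6 (ENSG00000198899) at chrM:8527-9207, MT-CO3 (ENSG00000198938) at chrM:9207-9990 and MT-CYB (ENSG00000198727) at chrM:14747-15887. All 6 are annotated as single exons on the forward strand, with lengths of 1542, 684, 207, 681, 784 and 1141 nt in that order. The deposited peak lists use another version of the mitochondrial sequence, so that these coordinates apply to GRCh37 only. MT-ATP8 and MT-ATP6 overlap by 46 nt and are read in different frames of a shared mRNA, and MT-ATP6 and MT-CO3 share 1 nt. These borders are shown because reads over them belong to both genes. The capitals mark the start codon of MT-ATP6 and the stop codon of MT-ATP8 in the first sequence, and the stop codon of MT-ATP6 running into the start codon of MT-CO3 in the second.
MT-ATP8 and MT-ATP6, chrM:8527-8572: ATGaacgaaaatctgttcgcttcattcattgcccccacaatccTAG
MT-ATP6 and MT-CO3, chrM:9188-9227: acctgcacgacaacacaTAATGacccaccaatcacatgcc

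The last 24 nt of each annotated gene are shown with the terminal codon or its remnant in capitals. That of MT-ATP8 lies inside the message it shares with MT-ATP6 and is no end of an mRNA. MT-CO3 and MT-CYB end in a lone T, and polyadenylation is known to complete such stop codons. Directly downstream the annotation places a tRNA gene for MT-CO3 (MT-TG) and MT-CYB (MT-TT), while MT-ATP6 runs into MT-CO3 with no tRNA between them. After MT-CO2 there are 25 nt before the tRNA gene MT-TK, and the tRNA gene after MT-CO1 (MT-TS1) is on the opposite strand. The ends shown for MT-CO1 and MT-CO2 are thus those of the annotated genes and may not be those of the messages. The libraries were made from poly(A)-selected RNA, which is why the 3′ ends of the messages bear on what was measured.
MT-CO1, chrM:7422-7445: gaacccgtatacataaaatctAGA
MT-CO2, chrM:8246-8269: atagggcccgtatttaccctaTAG
MT-ATP8, chrM:8549-8572: cattcattgcccccacaatccTAG
MT-ATP6, chrM:9184-9207: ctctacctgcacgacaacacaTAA
MT-CO3, chrM:9967-9990: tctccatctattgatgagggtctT
MT-CYB, chrM:15864-15887: aaaacaaaatactcaaatgggccT

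Levels below are CPM, the estimated read count of a gene scaled to a common total of counts on annotated genes with TMM factors, unless another scale is named. The libraries held 14683468, 31905915 and 43443469 counts on annotated genes without doxycycline and 44680610, 47862394 and 46639141 with it. Replicate 1 without doxycycline was therefore the shallowest, yet the least counted member, MT-ATP8, still had 6165 counts in it. It also had the lowest CPM of 5 of the 6 members. Pluripotency markers were present and no cell type marker examined was listed at 0 in all libraries. The 9 pluripotency markers summed to 3440 to 3756 CPM without doxycycline and 2727 to 2981 CPM with it. Of the 9, 5 fell and none rose (edgeR adjusted p under 0.05), where 8.49% of all genes tested fell. Endoderm markers summed to 1.20 to 1.91 CPM without and 2.98 to 3.75 CPM with doxycycline, and those of mesoderm, mostly HAND1, to 126 to 173 and 137 to 155 CPM. Of the 3 endoderm and 3 mesoderm markers tested, 1 each rose and none fell, where 8.97% of all genes tested rose. HAND1 was not higher, with means of 146 CPM without and 141 CPM with doxycycline. GATA6 was the highest of the endoderm markers, at 0.963 and 2.60 CPM, and 4 of the 5 endoderm markers averaged under 1 CPM. Markers of neural ectoderm summed to 1.16 to 2.11 CPM without and 1.82 to 2.00 CPM with doxycycline, and those of trophoblast to 0.136 to 0.186 and 0.126 to 0.191 CPM. The part of these marker differences in the mitochondrial results was not tested.

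Of the 6 members, 5 rose with doxycycline and none fell (edgeR's quasi-likelihood test, Benjamini-Hochberg adjusted p under 0.05 over all genes tested). Of all genes tested, 8.97% rose and 8.49% fell, 17.5% in all. The libraries of the 2 conditions did not overlap for these 5 members, which held for 37% of all genes in either direction and for 19.2% with doxycycline higher. The median log2 fold change of the members was 0.57, against −0.0025 over all genes tested. Since the members are cut from common precursors, they are not 6 independent observations. In bulk RNA, fewer cells of a kind and less RNA per cell cannot be told apart, and CPM gives a share of the library rather than an amount per cell.

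MT-CYB encodes cytochrome b, the only subunit of complex III that the mitochondrial genome provides. Its level was 1436, 1836 and 1633 CPM in the 3 libraries without doxycycline and 2984, 3633 and 3083 CPM in the 3 with it. Every treated library lay above every untreated one, with a gap wider than the range of either group. The mean rose from 1635 ± 200.2 to 3233 ± 349.5 CPM (SD, n = 3 each), a log2 fold change of 0.98 (SE 0.101, 95% interval 0.76 to 1.21, edgeR adjusted p = 0.000287), which is 1.98-fold. This was the largest change among the 13 mitochondrially encoded mRNAs, and the p-value of MT-CYB ranked 194 among the 16370 genes. That of MT-ND3, a complex I mRNA, ranked 114.

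The complex V members came next. MT-ATP6 encodes subunit a, which forms part of the proton channel of the ATP synthase. It was measured at 1583, 1973 and 1820 CPM without doxycycline and at 2734, 3377 and 3021 CPM with it. The groups did not overlap, and the mean rose from 1792 ± 196 to 3044 ± 322 CPM (SD, n = 3 each), with a log2 fold change of 0.76 (SE 0.0956, edgeR adjusted p = 0.000896). MT-ATP8, a small membrane subunit of the same enzyme, was measured at 420.3, 415 and 449.9 CPM without doxycycline and at 617, 721 and 819 CPM with it. The 3 untreated libraries were close to each other, the treated ones were spread more widely, and the groups did not overlap. The mean rose from 428 ± 18.8 to 719 ± 101 CPM, with a log2 fold change of 0.75 (SE 0.0939, edgeR adjusted p = 0.000909).

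The complex IV members changed least. MT-CO3, a core subunit of cytochrome c oxidase without a redox centre, was measured at 4648, 5382 and 5214 CPM without doxycycline and at 6273, 7175 and 6467 CPM with it. All treated libraries were higher, and the mean rose from 5081 ± 384 to 6638 ± 475 CPM (SD, n = 3 each), with a log2 fold change of 0.39 (SE 0.0726, edgeR adjusted p = 0.00729). MT-CO2, which accepts the electrons from cytochrome c, was measured at 3092, 3943 and 3653 CPM without and at 4243, 5043 and 4246 CPM with doxycycline. The groups did not overlap, but the highest untreated and lowest treated library lay close together. The mean went from 3563 ± 432 to 4511 ± 461 CPM, with a log2 fold change of 0.34 (SE 0.0980, edgeR adjusted p = 0.0419). This call of MT-CO2 was lost with 4 of the 6 libraries left out in turn, at an edgeR adjusted p of 0.0714 without untreated replicate 1, 0.0978 without untreated replicate 3, 0.0682 without treated replicate 1 and 0.153 without treated replicate 2.

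MT-CO1 was the 1 member that did not pass the test. It encodes the catalytic subunit of complex IV, which holds the site where oxygen is reduced, and had the highest CPM of the 6. The libraries without doxycycline had 12211, 15541 and 14787 CPM, and those with it had 14241, 16357 and 15131 CPM. The groups overlapped, and only untreated replicate 1 lay below all treated libraries. The means were 14179 ± 1746 and 15243 ± 1063 CPM (SD, n = 3 each), a log2 difference of 0.10 (SE 0.0902, 95% interval −0.10 to 0.31, edgeR adjusted p = 0.460). The interval includes 0 and does not reach the change measured for MT-CO3. Without untreated replicate 1 the log2 difference of MT-CO1 was 0.01.

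**Figure D1:**
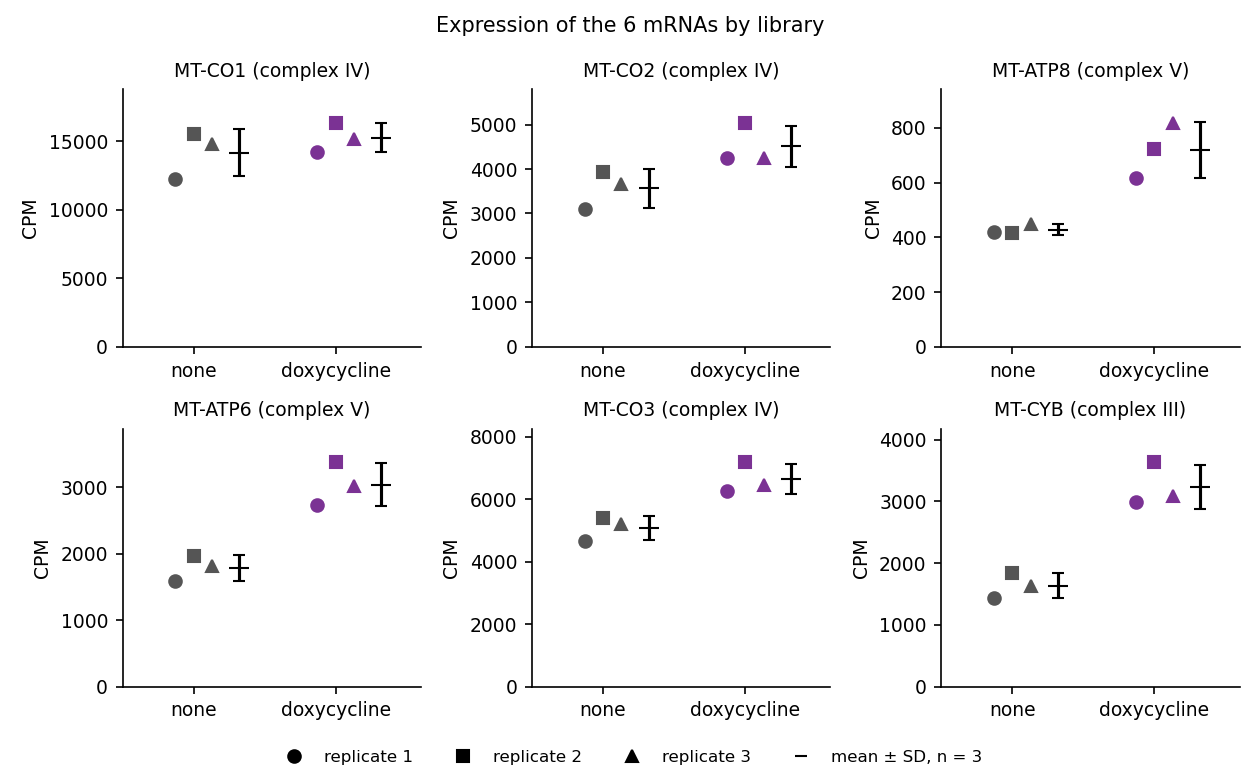
Level of each of the 6 mRNAs in every RNA library (CPM, linear axis), with points for the 3 libraries without and the 3 libraries with doxycycline. A line with bars gives the mean and SD of each group. The groups are apart for 5 of the mRNAs, with the widest gap for MT-CYB, and overlap for MT-CO1.

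The order of the levels across members is given per length, on a pair of scales that differ for short genes. TPM, as deposited, divides by the effective length that kallisto estimates, which for MT-ATP8 was 56.3 to 66.4 nt of its 207 nt, while for MT-CO1 it was 1352 to 1369 nt of 1542 nt. On the TPM scale without doxycycline, the mean levels were 13513 ± 1827 for MT-CO1, 10935 ± 1029 for MT-CO3, 9197 ± 1322 for MT-CO2, 9041 ± 714 for MT-ATP8, 4653 ± 619 for MT-ATP6 and 2211 ± 311 for MT-CYB (SD, n = 3). Each of the first 4 overlapped with its neighbour in this order, whereas MT-ATP6 and MT-CYB were each apart from the level above. With doxycycline the mean TPM was 14302 ± 1566 for MT-ATP8, 14036 ± 832 for MT-CO1, 13745 ± 706 for MT-CO3, 11172 ± 849 for MT-CO2, 7586 ± 674 for MT-ATP6 and 4213 ± 369.7 for MT-CYB. The first 3 did not differ beyond their spread, and MT-CYB remained the lowest.

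On the scale of CPM per kb of annotated length, MT-ATP8 took a different place. Without doxycycline the mean levels per kb were 9196 for MT-CO1, 6481 for MT-CO3, 5208 for MT-CO2, 2631 for MT-ATP6, 2069 for MT-ATP8 and 1433 for MT-CYB, and no neighbours overlapped. With doxycycline they were 9885, 8467, 6595, 4469, 3474 and 2834 in the same order, and only MT-ATP8 and MT-CYB overlapped. On this scale MT-CO1, MT-CO3 and MT-CO2 were the 3 highest in both conditions, so that the complex IV mRNAs stood above those of complexes V and III. The level of MT-ATP8 relative to the others thus depended on which length was used, while those of the 5 longer mRNAs kept their order.

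**Figure D2:**
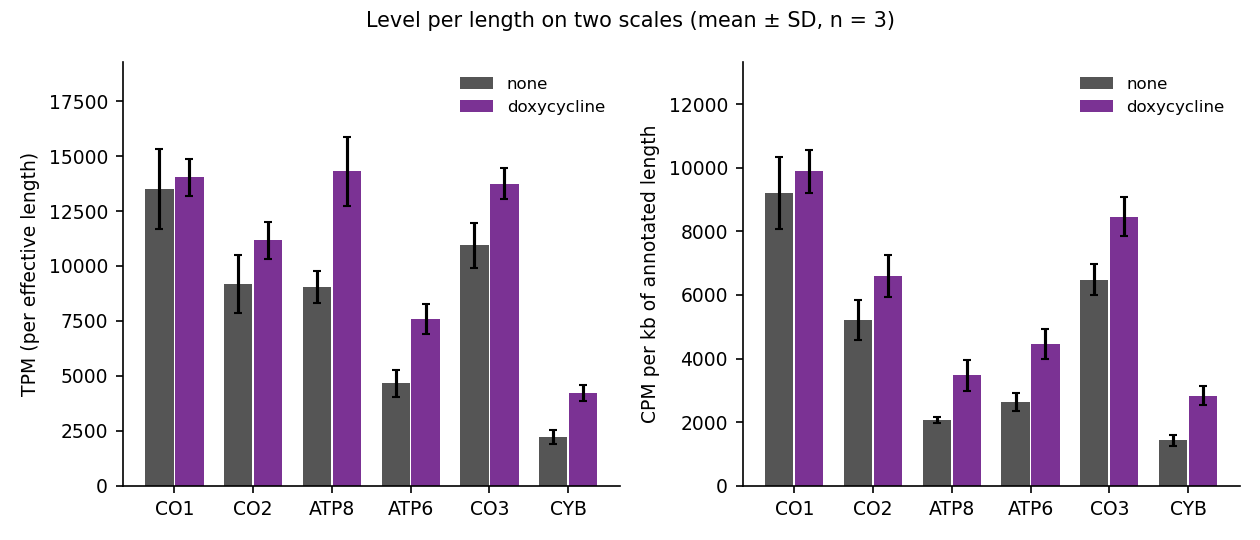
Mean level of the 6 mRNAs per length without and with doxycycline, as deposited TPM and as CPM per kb of annotated length, with bars of 1 SD (3 libraries each). MT-ATP8 moves from among the highest on the TPM scale to next to the lowest per annotated kb, and MT-CYB is lowest on both.

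Summed over the 6 members, the share of all counts was 2.34, 2.89 and 2.73% without doxycycline and 3.13, 3.62 and 3.30% with it. The groups did not overlap, and the mean went from 2.65 ± 0.285% to 3.35 ± 0.249%, a difference of 0.70 percentage points. All 13 mRNAs together went from 4.0 ± 0.430% to 5.05 ± 0.361%. Within the 13, the members held the same part in both conditions, at 66.3 ± 0.449% without and 66.4 ± 0.784% with doxycycline, with overlapping groups.

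The division among complexes within the 13 mRNAs did differ. Complex IV held 56.7 ± 0.554% of the counts of the 13 without doxycycline and 52.5 ± 0.767% with it. Complex III, which is MT-CYB alone, went from 4.06 ± 0.103% to 6.43 ± 0.268%, and complex V from 5.52 ± 0.125% to 7.48 ± 0.250%. For each of these 3 the groups did not overlap, whereas complex I overlapped at 33.7% and 33.6%. These shares sum to a whole, so a lower share of complex IV is no fall of its mRNAs, none of which was lower with doxycycline in the test. The lower share of complex IV lay in MT-CO1 alone. MT-CO1 held 34.5, 35.2 and 35.8% of the 13 without doxycycline and 30.6, 30.2 and 30.3% with it. The shares of MT-CO2 and MT-CO3 overlapped between the groups.

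**Figure D3:**
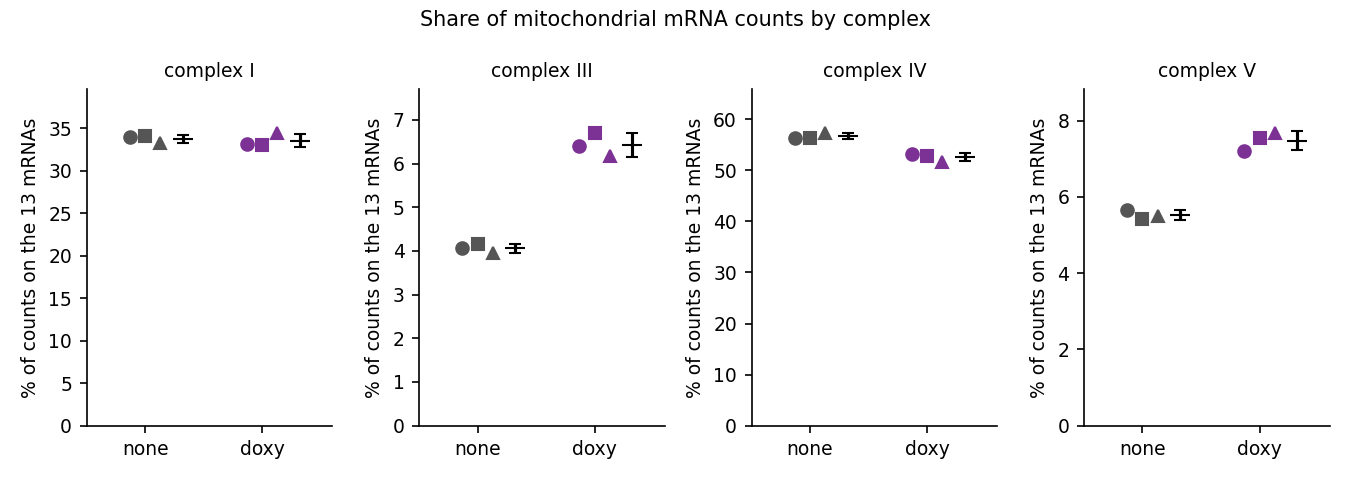
Share of each respiratory complex in the counts of the 13 mitochondrially encoded mRNAs, in percent, for every RNA library. The share of complex IV is lower in the 3 libraries with doxycycline, those of complexes III and V are higher, and that of complex I overlaps.

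The complex I mRNAs give the comparison for the members. Of the 7, which encode subunits of NADH dehydrogenase, 5 rose, none fell and 2 did not pass, with a median log2 fold change of 0.39. MT-ND3 rose most among them, with a log2 fold change of 0.72 (edgeR adjusted p = 8.25e-05). MT-ND4 had 0.33 and an edgeR adjusted p of 0.0516, and MT-ND5 had 0.10 and 0.504. The median log2 fold changes of the member complexes were 0.98 for complex III, with its 1 mRNA, 0.34 for complex IV and 0.76 for complex V. MT-CYB thus lay above every complex I mRNA. MT-ATP6 and MT-ATP8 were close to MT-ND3 (SE 0.0598), and MT-CO1 was close to MT-ND5. These differences between complexes were not tested as such.

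Position along the heavy-strand transcript was then compared with the change. Taken in order, the log2 fold changes of the members were 0.10 for MT-CO1, 0.34 for MT-CO2, 0.75 for MT-ATP8, 0.76 for MT-ATP6, 0.39 for MT-CO3 and 0.98 for MT-CYB. They increased up to the shared MT-ATP8 and MT-ATP6 message, were lower at MT-CO3, although that gene shares a nucleotide with MT-ATP6, and were highest at MT-CYB, the last mRNA of the strand. Across the 6 genes, Pearson's r between start position and log2 fold change was 0.79 and Spearman's rho 0.83. Across all 12 mRNAs of the heavy-strand transcript r was 0.41 and rho 0.23, and without MT-CYB r was 0.11 and rho 0.00 across 11. These correlations run over genes of the same libraries and precursors, which are not independent replicates, and serve as a description. The relation across the 12 rested on MT-CYB. MT-ND1 and MT-ND2, which precede MT-CO1, had log2 fold changes of 0.27 and 0.39, and MT-ND5, which directly precedes MT-CYB on that strand, had 0.10. MT-ND6, the 1 mRNA of the opposite strand, had 0.47.

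**Figure D4:**
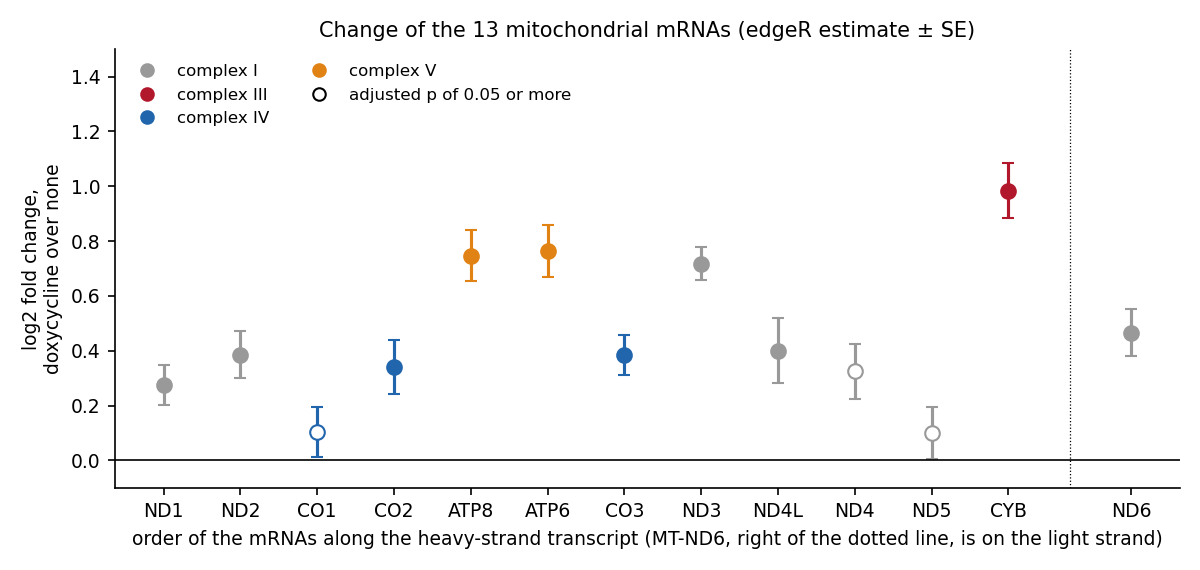
Log2 fold change with doxycycline of the mitochondrially encoded mRNAs in their order along the heavy-strand transcript, with the standard error of edgeR's fit and the complex of each by colour. The values do not follow a single trend: MT-CO1 and MT-ND5 are near 0.1, and MT-ATP8, MT-ATP6, MT-ND3 and MT-CYB are the 4 highest.

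Ratios within a library do not depend on its depth or on the rest of its RNA, and 4 pairs of members were compared this way. The ratio of MT-CYB to MT-CO1 counts was 0.115 ± 0.00431 without and 0.212 ± 0.00938 with doxycycline (SD, n = 3 each), a rise of 1.84-fold with no overlap. The ratio of MT-CO1 to MT-CO2 was 3.98 ± 0.0592 without and 3.39 ± 0.162 with it, and that of MT-CO3 to MT-ATP6 was 2.84 ± 0.105 and 2.19 ± 0.0937. Neither of these overlapped between the groups, although each pair is made of neighbouring genes or genes of a common precursor. Each of these 3 ratios had p = 0.1 in a two-sided exact permutation test of the 6 libraries, the smallest this design allows, and 0.133 after adjustment over the 4 ratios. The ratio of MT-ATP8 to MT-ATP6, which share an mRNA, was 0.241 ± 0.0280 without and 0.237 ± 0.0304 with doxycycline (exact permutation p = 1), and the libraries of both groups were interspersed. The log2 difference of that ratio went from −0.13 to 0.05 as single libraries were left out.

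Nuclear copies of mitochondrial genes take up reads that cannot be told apart from those of the originals. In windows of 31 bases, 95% of the windows of MT-CYB occurred in no other annotated gene, against 55.4% for MT-ATP8, 55.0% for MT-CO3, 49.5% for MT-CO2, 36.3% for MT-ATP6 and 33.3% for MT-CO1. For MT-ATP8 and MT-ATP6, the shared windows include those in their overlap with each other, besides those in nuclear copies. MT-CYB, with the largest change, was therefore the member least open to shared reads. Of 187 nuclear copies of the members in the annotation, 5 had a mean of at least 10 counts per library. The one that carried many counts was MTATP6P1 (ENSG00000248527), at 569076 to 569756 of chromosome 1 in GRCh37. It took 13.5 to 16.2% of the summed counts of MT-ATP6 and itself, whereas MTCO1P12, which shares 62.2% of the windows of MT-CO1, took at most 0.0496% of its sum with MT-CO1.

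MTATP6P1 differs from MT-ATP6 at 10 of 681 positions, an identity of 98.5%. A stretch that holds 3 of the differences is shown to give an idea of how few bases separate their reads, with the differing bases in capitals. They are C129T, A151C and A175G, counted from the first base of MT-ATP6 with the base of MT-ATP6 first.
MT-ATP6, positions 110 to 179: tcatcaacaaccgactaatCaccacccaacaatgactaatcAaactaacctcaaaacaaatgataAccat
MTATP6P1, same positions: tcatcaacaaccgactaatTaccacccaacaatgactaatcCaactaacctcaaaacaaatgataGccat
The copy was measured at 306 ± 22.3 CPM without and 573 ± 72.2 CPM with doxycycline, a log2 fold change of 0.90 (SE 0.0924, edgeR adjusted p = 0.000288), in the same direction as MT-ATP6. How kallisto divided reads between them is not known from the files, and the value of either alone is uncertain to that extent. With the counts of nuclear copies added to those of each member, MT-ATP6 had a log2 fold change of 0.79 (edgeR adjusted p = 0.000690). The other 4 copies, MTCO1P12, MTCO3P12, MTCO3P22 and MTCYBP14, did not pass the test. The strand setting of the counting was not given in the sources used here, so reads from antisense RNA of the light strand cannot be told apart from those of the mRNAs.

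Genes that act on the members or join them in a complex were examined as lists, again without a test of the list. Among the 9 nuclear subunits of complex III, the partners of MT-CYB, 5 rose and none fell, with a median log2 fold change of 0.28. UQCRFS1, the Rieske iron-sulfur protein, rose by 0.59 on the log2 scale (edgeR adjusted p = 0.00118), UQCRQ by 0.50 (0.000818) and UQCR10 by 0.36 (0.00549). Of the 12 nuclear subunits of complex IV that were tested, of 15 listed, 7 rose and none fell, with a median of 0.28. Among those 7 the largest changes were COX7A2 at 0.38, COX8A at 0.35 and COX7C at 0.34, all small subunits of the membrane part. COX6B2, named here after its value was seen, had 0.53 and did not pass (edgeR adjusted p = 0.0518). Of the 19 nuclear genes of complex V, 4 rose and none fell, with a median of 0.18. They include ATP5IF1, an inhibitor of the enzyme, at 0.29, ATP5MK at 0.25 and ATP5F1B, the catalytic beta subunit, at 0.20. Compared with the 17.5% of all genes that changed in either direction, 55.6%, 58.3% and 21.1% of the 3 lists did.

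Calls in these lists of nuclear subunits depended on single libraries. The count for complex IV was 2 without treated replicate 2, 3 without untreated replicate 2 and 4 without treated replicate 1. For complex V it was 1 without untreated replicate 2, treated replicate 1 or treated replicate 2, 2 without untreated replicate 1 or 3, and 7 without treated replicate 3. For complex III it stayed between 4 and 6. Calls over all genes, 2858 in the main fit, also depended on the library left out. They were 1396 without treated replicate 2, 1468 without untreated replicate 2 and 1749 without treated replicate 1. Without untreated replicate 3 they were 1748, without untreated replicate 1 3260 and without treated replicate 3 2455.

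**Figure D5:**
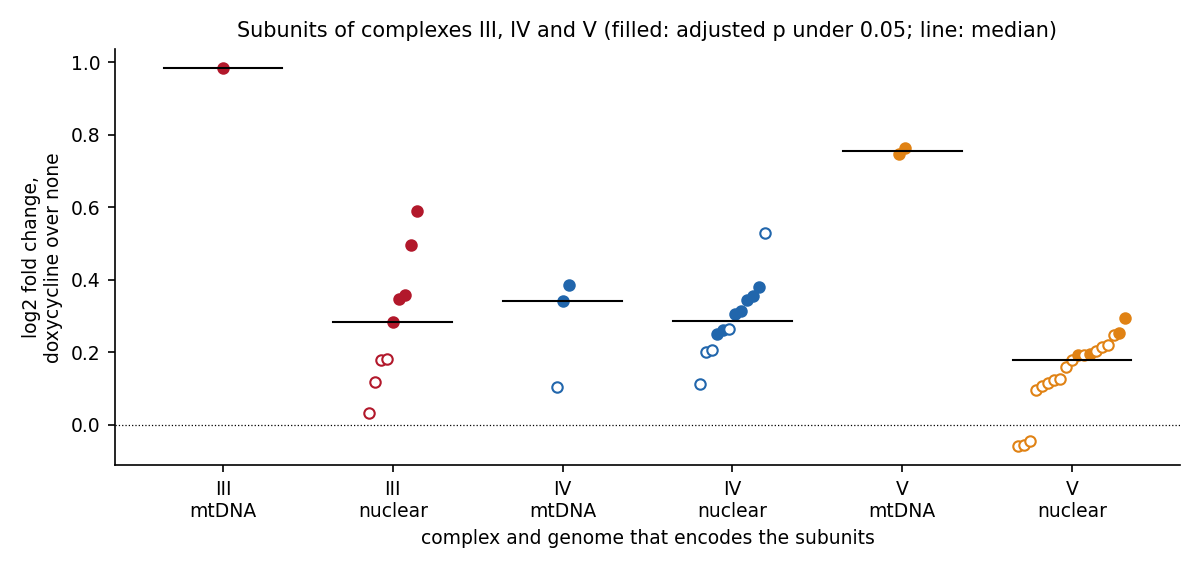
Log2 fold changes with doxycycline of the mitochondrially encoded and nuclear-encoded subunits of complexes III, IV and V, each point a gene and filled where edgeR's adjusted p is under 0.05. MT-CYB, MT-ATP6 and MT-ATP8 lie above the nuclear subunits of their complexes, and the complex IV genes of both genomes lie between 0.10 and 0.53.

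Among 27 factors for the translation of these mRNAs and the assembly of complexes III to V, 9 rose and none fell, 33.3% of the list against 8.97% of all genes that rose, with a median log2 fold change of 0.18. COX17, which carries copper to complex IV, rose by 0.66 on the log2 scale (edgeR adjusted p = 0.00136), COX14, an assembly factor that acts on MT-CO1 protein, by 0.54 (0.00199), and UQCC3, an assembly factor of complex III, by 0.43 (0.0434). This count was 2 without untreated replicate 2, treated replicate 1 or treated replicate 2, and 5 without untreated replicate 3. Over all genes, the same fits called 1396 to 1749, against 2858 with every library.

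Genes that make and keep mitochondrial RNA went in both directions. Of 15 genes for transcription and copying of mitochondrial DNA, 1 rose and 3 fell, 26.7% of the list against 17.5% of all genes, with a median of −0.01. MGME1, a nuclease of mitochondrial DNA replication, had a log2 fold change of −0.29 (edgeR adjusted p = 0.00897), TFB1M, an rRNA methyltransferase, −0.24 (0.0295) and TFAM, which packages the DNA and starts its transcription, −0.21 (0.0281). POLRMT, the mitochondrial RNA polymerase, named here after its value was seen, had 0.06 and did not pass. Of 21 genes for RNA processing and stability, 1 rose and 1 fell, 9.52% of the list, with a median of −0.02. LRPPRC, which binds and stabilises mitochondrial mRNAs, was lower with doxycycline, at 574 ± 20.7 CPM without and 469 ± 24.8 CPM with it, a log2 fold change of −0.29 (edgeR adjusted p = 0.00907). TBRG4, an RNA-binding protein of the FASTK family, was higher at 0.19 (0.0417). The count for RNA processing was 1 without untreated replicate 2 or 3 or treated replicate 1 or 2, and 3 without untreated replicate 1 or treated replicate 3, and that for transcription was 1 without untreated replicate 2 or 3 or treated replicate 1. Without untreated replicate 2 or 3 or treated replicate 1 or 2, calls over all genes were 1396 to 1749, against 2858.

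Finally, the pattern of the summed members over the 6 libraries was compared with that of 9990 nuclear genes whose mean reached 10 CPM, as Pearson's r of log2(CPM + 1). The nuclear genes most like it were SRP68, of the signal recognition particle, with r of 0.999, FXYD6 with 0.993 and RARS1, a cytosolic arginyl-tRNA synthetase, with 0.991. Their log2 fold changes with doxycycline were 0.09, 0.23 and 0.10 in that order. Likeness by r concerns the pattern over libraries and not the size of a change. Of the complex I mRNAs, MT-ND2 had r of 0.991, MT-ND1 0.976 and MT-ND4 0.967, exceeded by 2, 12 and 25 of the nuclear genes. MT-ND4L had 0.933, MT-ND3 0.897 and MT-ND5 0.808, exceeded by 138, 319 and 920. MT-ND6, from the opposite strand, had 0.565. With 6 libraries in 2 conditions and 9990 genes, values this high occur among genes with no stated relation, and they are given as a description only.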

How the data were processed

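RNA-seq of 6 libraries was used. As deposited by the authors, each transcript has an estimated count and a TPM from kallisto, not normalized further, from poly(A)-selected, strand-specific libraries. The kallisto version, index and strand setting are not given in the sources used here. Lengths and effective lengths were taken as deposited. Counts were added up within GENCODE v44lift37 genes, which matched 88.2% of the transcripts, and rounded. The main test was the quasi-likelihood test of edgeR 4.0.16 under R 4.3.3 (genes kept by filterByExpr, TMM factors, Benjamini-Hochberg adjustment over 16370 genes, threshold 0.05). Of all genes tested, 17.5% were called. Depth ranged from 14683468 to 47862394 counts, and replicates differed by 7.31 to 14.6 times the variance of counting alone (chi-square per gene). DESeq2 1.42.0, limma 3.58.1 on log2(TPM + 1), other scalings and filters, a replicate block and leaving out each library were alternatives. Ratios were compared with two-sided exact permutation tests. The fit was tested on simulated data.

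Sequences were read from GRCh37. The deposited peak lists, whose fold enrichments are ratios by the authors' peak caller, were searched for mitochondrial peaks only. A table of HiChIP contacts was not used. The members, lists and alternatives were chosen with earlier results of these data known. The genes named were the 6 members, nuclear copies with a mean of at least 10 counts, up to 3 called genes with the largest change per list, and the 3 nuclear genes most like the summed members, with complex I mRNAs where an order turned on them. POLRMT and COX6B2 lie outside this rule.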

Additional observations from a re-analysis of the deposited data

Results flagged for a closer look

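Among the ChIP-seq peak lists, 1 H3K9me3 list held a peak on the mitochondrial genome. It was that of doxycycline-treated SCi-NCCITs, replicate 1, with 1 such peak of 123014 and a fold enrichment of 1.38. The other H3K9me3 lists, of treated replicate 2, of both untreated replicates and of NCCITs without dCas9-KRAB, held none. It stands out because it lies outside the RNA measurements and above the untreated H3K9me3 lists. Each list is from 1 library, and the difference was not tested. Such peaks were not limited to H3K9me3 or to treated cells. The YY1 list of untreated replicate 1 held 7, with fold enrichments of up to 1.84.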

How the results depend on the processing

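Of 213 values of 19 results under alternatives, 174 kept their direction and call, or a count near the main one. Of the rest, 6 lost the call, 30 moved and 3 reversed. A near count need not be equal: 4 members called against 5, and 3316 genes with a replicate block against 2858, were among the 174. MT-CYB (0.89 to 1.07), MT-ATP6 (0.68 to 0.84), MT-ATP8 (0.65 to 0.84) and MT-CO3 (0.33 to 0.43) kept their call with each library left out. The call of MT-CO2 was lost with counts scaled by length (0.33, edgeR adjusted p = 0.0746) and with limma on log2(TPM + 1) (0.29, limma adjusted p = 0.144), and ranged from 0.25 to 0.42 with each library left out, so that 4 to 5 members were called. All genes called were 2858, against 1878 with length scaling and 1396 to 3260 with each library left out, the lowest without treated replicate 2. Taken as TPM, the share of the members differed by 1.55 percentage points. The log2 ratio of MT-ATP8 to MT-ATP6 ranged from −0.13 to 0.0499, above 0 without untreated replicate 1 or treated replicate 1 or 2. With each library left out, the number called was 1 to 3 for RNA processing, 1 to 3 for mitochondrial DNA transcription, 2 to 9 for translation and assembly, 2 to 8 for nuclear complex IV and 1 to 7 for nuclear complex V. DESeq2 called 4 for RNA processing and 7 for complex V. A cause was tested for none of these.

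Replicate numbers gave no clear pairing: deviations of same-numbered libraries correlated at 0.128, 0.0799 and −0.000944. For differently numbered libraries the range was −0.127 to 0.0599, below the first and second of these values. With a replicate block, 3316 genes were called, among them 5 members and 4 genes for RNA processing. With 3 libraries a group, changes the size of that of MT-CO1 were within the error.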

Other observations

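The YY1 list of untreated SCi-NCCITs, replicate 1, held 7 peaks on the mitochondrial genome, with fold enrichments of 1.33 to 1.84. The untreated replicate 2 and both treated YY1 lists held none, nor did either OCT4 list.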
